A study of Homo sapiens with 9 samples.

Results

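The genes described here encode the oxygen-sensing arm of the hypoxia-inducible factor (HIF) pathway, read in PANC-1 cells, a line from a human pancreatic tumour, after 0, 2 and 14 days of combined nutrient and oxygen deprivation. The set was given as a list of 10 genes and all 10 were found among the 27800 symbols of the expression table. They are the HIF alpha subunits HIF1A, EPAS1 and HIF3A, their partner ARNT, the prolyl hydroxylases EGLN1, EGLN2 and EGLN3, the asparaginyl hydroxylase HIF1AN, the ubiquitin ligase subunit VHL, and ANKRD37, a HIF-induced ankyrin repeat gene. There were 9 RNA sequencing libraries, 3 each at day 0, day 2 and day 14. The column of each library was headed WT (wild type), with its day and replicate number. Every library came from the same untransfected line with no added agent, and the labels gave 1 growth medium for all 9, a DMEM whose amino acids were cut to 20%, whose serum (FCS) was 0.5% and whose glucose was 2.5 mM. The state of the day 0 cells is not spelled out in them, nor an oxygen level, and they gave no undeprived cells at day 2 or day 14, so deprivation cannot be told apart from time in culture. The labels did not say whether replicates were separate cultures, and p-values here measure only the spread between these libraries, which may be technical.

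In oxygenated cells the HIF alpha proteins are made and destroyed continuously. EGLN enzymes use oxygen and 2-oxoglutarate to hydroxylate prolines of the alpha subunits, VHL binds the hydroxylated form and marks it for the proteasome, and HIF1AN hydroxylates an asparagine that blocks the coactivators EP300 and CREBBP. When oxygen is short the alpha subunits escape, pair with ARNT and bind DNA at hypoxia response elements, whose core is ACGTG or GCGTG. Control of the alpha subunits is thus largely at the protein, which RNA levels do not show, whereas EGLN1 and EGLN3 are known HIF targets and form a negative feedback loop.

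The DNA before the starts of 5 members is shown because it lets the known target genes among them be set beside the others. The sequences are from RefSeq on GRCh38.p14, which is not the build the submitters named, and each holds the 250 bases before the annotated start, written 5′ to 3′ on the strand of the gene. The core motif ACGTG, searched on both strands, is in capitals, and CACGTG is a palindrome that holds it on both strands in overlap. EGLN1, EGLN3 and ANKRD37 were higher in deprivation, EGLN2 was lower at day 14 and HIF1A was not called.
EGLN1 (chr1:231422288-231422537, - strand): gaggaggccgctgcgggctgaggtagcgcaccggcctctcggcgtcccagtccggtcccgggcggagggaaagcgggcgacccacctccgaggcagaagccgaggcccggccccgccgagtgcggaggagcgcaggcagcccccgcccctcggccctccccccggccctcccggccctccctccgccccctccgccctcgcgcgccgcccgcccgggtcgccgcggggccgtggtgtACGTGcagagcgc
EGLN3 (chr14:33951075-33951324, - strand): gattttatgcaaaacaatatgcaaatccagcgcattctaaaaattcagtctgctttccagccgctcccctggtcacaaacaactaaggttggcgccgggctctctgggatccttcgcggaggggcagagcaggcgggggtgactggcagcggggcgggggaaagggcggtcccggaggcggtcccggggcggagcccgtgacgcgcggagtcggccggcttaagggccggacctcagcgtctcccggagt
ANKRD37 (chr4:185396591-185396840, + strand): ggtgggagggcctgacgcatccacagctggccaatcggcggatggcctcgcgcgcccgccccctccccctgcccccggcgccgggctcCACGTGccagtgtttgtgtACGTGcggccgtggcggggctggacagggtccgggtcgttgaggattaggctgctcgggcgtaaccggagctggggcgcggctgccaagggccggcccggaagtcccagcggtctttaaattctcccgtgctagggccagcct
EGLN2 (chr19:40798941-40799190, + strand): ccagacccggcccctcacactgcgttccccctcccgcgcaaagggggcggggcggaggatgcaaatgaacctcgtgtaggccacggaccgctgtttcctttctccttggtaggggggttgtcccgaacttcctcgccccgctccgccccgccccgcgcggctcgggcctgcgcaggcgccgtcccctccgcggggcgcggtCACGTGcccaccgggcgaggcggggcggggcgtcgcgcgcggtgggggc
HIF1A (chr14:61695263-61695512, + strand): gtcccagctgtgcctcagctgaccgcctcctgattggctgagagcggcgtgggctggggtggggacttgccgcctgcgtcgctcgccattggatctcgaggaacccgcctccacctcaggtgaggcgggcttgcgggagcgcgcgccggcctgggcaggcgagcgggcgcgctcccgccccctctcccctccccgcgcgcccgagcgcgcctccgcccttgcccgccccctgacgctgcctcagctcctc

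The EGLN1 window held 1 ACGTG, whose first base lies 13 bases before the start. The ANKRD37 window held the palindrome CACGTG, which begins 162 bases before the start, and a further ACGTG at 143 bases. The window of the first EGLN2 start also held that palindrome, beginning at 49 bases, and EGLN2 was lower at day 14. EGLN2 and HIF1A are shown at the first of their annotated starts. No ACGTG was found in the windows of EGLN3 and HIF1A, which says only that these letters are not in those bases. Of all 35116 RefSeq promoters 18.5% held ACGTG in the same 250 bases and 32.2% held GCGTG. The GCGTG core was found in the first windows of HIF1A (204 bases before the start), EPAS1 (117 bases) and HIF3A, and in none of the EGLN windows. A window was found for 9 of the 10 members, with more than 1 start for 3 of them (HIF1A, HIF3A and EGLN2), and a motif match is a description of the sequence only.

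Levels are in TPM, an abundance scaled by transcript length that sums to 1000000 in every library. It keeps no depth, so the depth behind each value is unknown and no counting interval is given. Tests were made on log2(TPM + 1) with limma across the 14144 genes that reached 1 TPM in 3 or more libraries, with Benjamini-Hochberg adjustment and a threshold of 0.05, and fold changes on this scale understate those of low genes. Of the 10 members 9 were tested. HIF3A reached 1 TPM in no library, and EGLN3 reached it in only 6 libraries, all of day 2 and day 14, so its presence among the tested genes already required a difference. Day 0 replicate 2 stood apart from the other libraries. In it 11363 genes reached 1 TPM, a number of 13016 to 13868 elsewhere, and it gave 23.8% of its TPM to ribosomal protein genes, against 10.2% to 14.8%. Because day 0 is shared by the day 2 and day 14 comparisons, each member's result is also given without that library. The 7 epithelial and ductal markers summed to 5564 to 5955 TPM at day 0, 2698 to 3013 at day 2 and 2064 to 2405 at day 14. KRT8, KRT18, KRT19 and EPCAM were called lower at both later days, VIM was called lower at day 14, and KRT7 and CDH1 were not called. None of the 7 was at 0 in all libraries, and VIM, a mesenchymal filament gene kept on that list, was at 881 to 2526 TPM. Summed levels over the markers of acinar, islet and endothelial cells reached at most 1.57, 0.311 and 0.544 TPM in any library. The fibroblast list summed to 10.5 to 62.8 TPM at day 0, 56.6 to 74.0 at day 2 and 8.66 to 13.2 at day 14, nearly all of it COL1A1, with DCN at 0 throughout, and the blood list to 36.1 to 69.4, 21.8 to 40.1 and 41.2 to 56.5 TPM, nearly all of it CD68, with CD3E and HBB at 0; their part in the results was not tested.

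**Figure D1:**
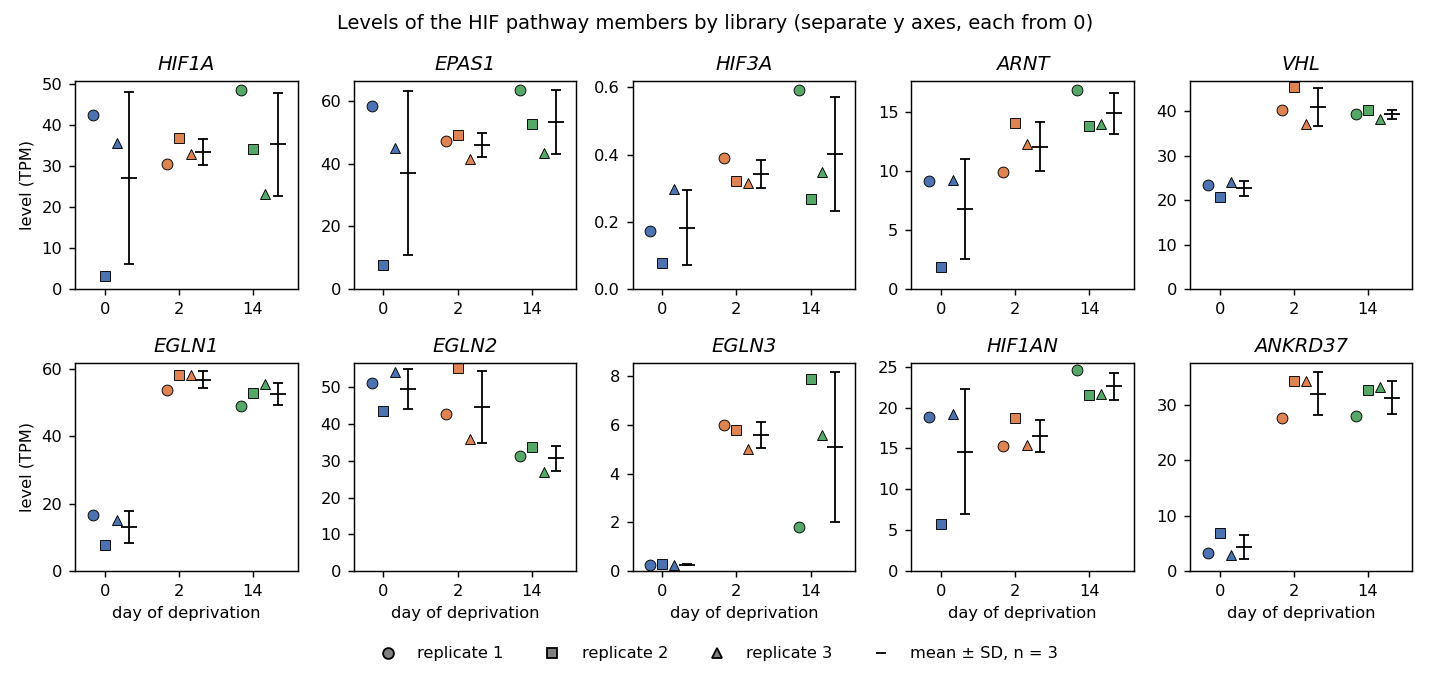
Level of each of the 10 members in TPM (y axis, each panel from 0) at day 0, 2 and 14 of deprivation (x axis), with 1 marker per library, shaped by replicate number, and the mean ± SD of 3 libraries as a bar. EGLN1, EGLN3, ANKRD37 and VHL sit higher in every day 2 and day 14 library than in any day 0 library. So does ARNT, by a small margin at day 2, and the share of all genes without overlap was not computed. HIF1A and EPAS1 show 1 low day 0 library, replicate 2, among otherwise overlapping days.

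At day 2, 4 of the 9 tested members were called higher than at day 0 and none lower, with 0 lower also at an unadjusted p under 0.05. Over all tested genes limma called 19.2% higher and 11.5% lower in that comparison, and 24.7% and 23.6% without day 0 replicate 2. The 4 were EGLN1, EGLN3, VHL and ANKRD37, and none of the HIF subunit messages was among them. EGLN3 passed the filter only through its day 2 and day 14 libraries, so its calls against day 0 describe and do not support. At day 14 the same 4 were called higher and EGLN2 was called lower, against 27.5% of all tested genes higher and 6.72% lower, or 34.6% and 14.5% without day 0 replicate 2. Under median-ratio scaling 46.7% of called genes were higher at day 2, against 62.4% in the main fit, and 45.8% at day 14, against 80.4%. The median log2 change of all tested genes was 0.23 at day 2 and 0.44 at day 14, and median-ratio scaling shifted it by -0.28 and -0.49. The median over the 9 tested members was 0.86 at day 2 and 0.89 at day 14. These are the values of HIF1A at day 2 and of EPAS1 at day 14. In day 0 replicate 2 the TPM of these 2 genes was 0.084 and 0.151 of the mean of replicates 1 and 3. The medians thus lean on 1 library and do not show a rise of the set as a whole.

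Among the HIF alpha subunits, HIF1A encodes the subunit of the main acute response. Its level was 42.4, 3.29 and 35.8 TPM in day 0 replicates 1, 2 and 3, 30.5, 37.0 and 33.0 TPM at day 2, and 48.6, 34.2 and 23.3 TPM at day 14. The days overlapped, with the single low value in day 0 replicate 2 and the highest in day 14 replicate 1. The log2 change was 0.86 ± 0.77 at day 2 against day 0 (SE, limma adjusted p = 0.422) and 0.88 ± 0.77 at day 14 (adjusted p = 0.399). Without day 0 replicate 2 the direction turned, to -0.22 ± 0.27 at day 2 (adjusted p = 0.536) and -0.20 ± 0.27 at day 14 (adjusted p = 0.57). The message of HIF1A was thus not called in either direction, and its estimate rested on 1 library.

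EPAS1, which encodes the HIF alpha subunit also called HIF2A, was at 58.4, 7.80 and 44.9 TPM at day 0, 47.2, 49.1 and 41.6 TPM at day 2, and 63.5, 52.7 and 43.3 TPM at day 14. Again the days overlapped apart from the low day 0 replicate 2. Its log2 change was 0.70 ± 0.61 at day 2 (adjusted p = 0.408), or -0.16 ± 0.18 without that library, and 0.89 ± 0.61 at day 14 (adjusted p = 0.279), or 0.04 ± 0.18 without it. The EPAS1 message made up 55.6% to 70.4% of the summed HIF1A and EPAS1 message at day 0, 55.7% to 60.7% at day 2 and 56.7% to 65.0% at day 14. EPAS1 was thus the more abundant alpha subunit message in all 9 libraries, and the days overlapped in this share.

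HIF3A, the alpha family member with splice forms that restrain HIF activity, was at 0.173, 0.0780 and 0.298 TPM at day 0, 0.390, 0.323 and 0.315 TPM at day 2, and 0.593, 0.267 and 0.349 TPM at day 14. It stayed below the test's filter on every day. ARNT, the constitutive beta subunit, was at 9.12, 1.87 and 9.27 TPM at day 0, 9.89, 14.0 and 12.3 TPM at day 2, and 16.9, 13.8 and 13.9 TPM at day 14. Both later days lay above day 0 in every library, by a small margin at day 2. The log2 change of ARNT was 0.95 ± 0.45 at day 2 (adjusted p = 0.141) and 1.24 ± 0.45 at day 14 (adjusted p = 0.063). Without day 0 replicate 2 these became 0.35 ± 0.16 (adjusted p = 0.107) and 0.63 ± 0.16 (adjusted p = 0.013), a smaller change that passed the test at day 14. ARNT was called at day 14 in 6 of 21 alternatives, among them those without day 0 replicate 1 (1.54, adjusted p = 0.0399) and without day 0 replicate 3 (1.55, adjusted p = 0.0392). The summed alpha subunit message was 5.92 to 11.1 times that of ARNT at day 0, 6.07 to 7.86 times at day 2 and 4.78 to 6.65 times at day 14.

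The low values in day 0 replicate 2 did not touch all members alike. Its TPM was 0.084 of the mean of replicates 1 and 3 for HIF1A, 0.151 for EPAS1, 0.204 for ARNT and 0.304 for HIF1AN. For HIF1A the log2 difference was -3.22, and 1.68% of all tested genes lay lower. EGLN1 stood at 0.487 of that mean, EGLN2 at 0.829, VHL at 0.878, EGLN3 at 1.05 and ANKRD37 at 2.17. The antisense symbol HIF1A-AS2, which overlaps the 3′ part of HIF1A, was listed at 28.3 TPM in the same library, at 0 in day 0 replicates 1 and 3, and at 0.209 to 0.758 TPM at day 2 and day 14. The strand setting of the libraries was not given in the sources used here, so reads of HIF1A and of its antisense RNA may not be separable, and the part of either in the other's value was not tested.

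Of the prolyl hydroxylases, EGLN1 (PHD2) is the main enzyme setting HIF levels in oxygenated cells and a HIF target itself. It was at 16.5, 7.68 and 15.0 TPM at day 0, 53.8, 58.2 and 58.1 TPM at day 2, and 49.1, 52.9 and 55.4 TPM at day 14. No later library came near a day 0 library. EGLN1 rose by 2.10 ± 0.26 on the log2 scale at day 2 (adjusted p = 0.000874) and by 1.99 ± 0.26 at day 14 (adjusted p = 0.00123), a mean level 4.34 and 4.01 times that of day 0. Without day 0 replicate 2 the changes were 1.78 ± 0.10 and 1.67 ± 0.10. EGLN1 was called higher under all 21 alternative settings in both comparisons.

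EGLN3 (PHD3) is the family member known for the strongest induction in low oxygen. Its level was 0.252, 0.271 and 0.262 TPM at day 0, 6.0, 5.81 and 5.0 TPM at day 2, and 1.80, 7.88 and 5.59 TPM at day 14. The day 0 libraries were nearly equal, and the lowest later value, in day 14 replicate 1, was still above all of them. The mean was 21.4 times that of day 0 at day 2 and 19.5 times at day 14, from a day 0 level too low for the ratio to be precise at unknown depth. EGLN3 rose by 2.38 ± 0.37 on the log2 scale at day 2 (adjusted p = 0.00231) and by 2.12 ± 0.37 at day 14 (adjusted p = 0.00376), or by 3.97 and 3.61 with a pseudocount of 0.1. Since EGLN3 passed the filter only through the later libraries, these p-values describe and do not support. At its highest it still gave 8.35% of the summed EGLN message.

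EGLN2 (PHD1), the family member that is not known as hypoxia-induced, was at 51.1, 43.6 and 54.1 TPM at day 0, 42.6, 55.3 and 36.0 TPM at day 2, and 31.4, 33.7 and 27.0 TPM at day 14. Day 2 overlapped day 0, whereas every day 14 library was below every earlier one. EGLN2 was not called at day 2 (log2 change -0.16 ± 0.20, adjusted p = 0.557) and fell by 0.68 ± 0.20 at day 14 (adjusted p = 0.0312). That call was held in 13 of 21 alternatives. It was lost without day 0 replicate 1 or 3, day 2 replicate 1, or any 1 day 14 library (adjusted p = 0.0561 to 0.107), with day 0 and day 14 fitted alone (0.0607) and with a replicate block (0.0674), and it held without day 0 replicate 2 (0.0108). The read-through symbol RAB4B-EGLN2 was at 0.638 to 1.12 TPM at day 0, 1.41 to 3.08 at day 2 and 1.35 to 3.45 at day 14, and how its reads were split from those of EGLN2 was not tested.

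The most abundant prolyl hydroxylase message was EGLN2 at day 0 and EGLN1 at day 2 and day 14. EGLN2 gave 75.3%, 84.6% and 78.0% of the summed EGLN1, EGLN2 and EGLN3 message at day 0, 41.6%, 46.3% and 36.3% at day 2, and 38.1%, 35.6% and 30.7% at day 14. EGLN1 gave 24.4%, 14.9% and 21.6% at day 0, 52.5%, 48.8% and 58.6% at day 2, and 59.7%, 56.0% and 63.0% at day 14. The day 0 shares thus did not overlap the later ones, with or without day 0 replicate 2, and EGLN1 exceeded EGLN2 in all 6 later libraries and in no day 0 library. The summed EGLN message was 67.9, 51.5 and 69.4 TPM at day 0, 102, 119 and 99.2 TPM at day 2, and 82.3, 94.5 and 88.1 TPM at day 14. Shares and ratios within a library do not move with how the library was scaled, and no test was made on them.

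**Figure D2:**
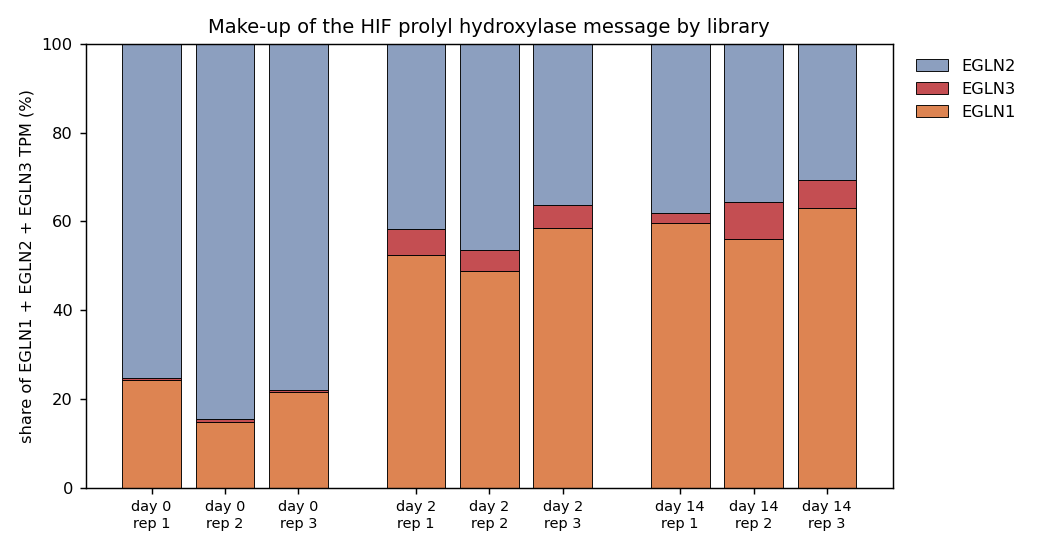
Share of the summed EGLN1, EGLN2 and EGLN3 TPM (y axis, percent, from 0) taken by each gene in each of the 9 libraries (x axis, grouped by day). EGLN2 holds 75.3% or more in each day 0 library and 46.3% or less in each later one.

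Hydroxylase and subunit messages were set against each other as ratios within each library, and whether their changes differed was not tested. The ratio of EGLN1 to HIF1A was 0.39, 2.34 and 0.419 at day 0, 1.76, 1.57 and 1.76 at day 2, and 1.011, 1.55 and 2.38 at day 14. The value of 2.34 belongs to day 0 replicate 2, the library with the low HIF1A value, and made day 0 overlap the later days. In day 0 replicates 1 and 3 the ratio was below that of every later library. For EGLN1 to EPAS1 the ratio was 0.283, 0.984 and 0.334 at day 0, 1.14, 1.19 and 1.40 at day 2, and 0.773, 1.004 and 1.28 at day 14, so day 2 lay above all of day 0 and day 14 overlapped it through replicate 2. The ratio of EGLN3 to HIF1A was 0.00595, 0.0824 and 0.00732 at day 0, 0.196, 0.157 and 0.151 at day 2, and 0.0371, 0.231 and 0.24 at day 14. Here all day 2 libraries lay above day 0, and day 14 replicate 1 fell between the day 0 values.

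On the log2(TPM + 1) scale the ratio of EGLN1 to HIF1A was higher by 1.24 at day 2 than at day 0, and by 2.0 without day 0 replicate 2. The ratio of EGLN3 to HIF1A was higher by 1.53, or 2.61 without that library, the ratio of EGLN1 to EPAS1 by 1.40 or 1.94, and the ratio of EGLN3 to EPAS1 by 1.68 or 2.55. At day 14 against day 0 the same ratios were higher by 1.11, 1.24, 1.10 and 1.23 in the order EGLN1 to HIF1A, EGLN3 to HIF1A, EGLN1 to EPAS1 and EGLN3 to EPAS1, and by 1.87, 2.32, 1.64 and 2.09 without day 0 replicate 2. The summed EGLN message was 0.673 and 0.86 of the summed alpha message in day 0 replicates 1 and 3 and 4.65 times it in replicate 2, against 1.32 to 1.39 at day 2 and 0.734 to 1.32 at day 14. Day 2 libraries thus had more EGLN than alpha subunit message in every case, and day 14 libraries ranged on both sides of equality.

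**Figure D3:**
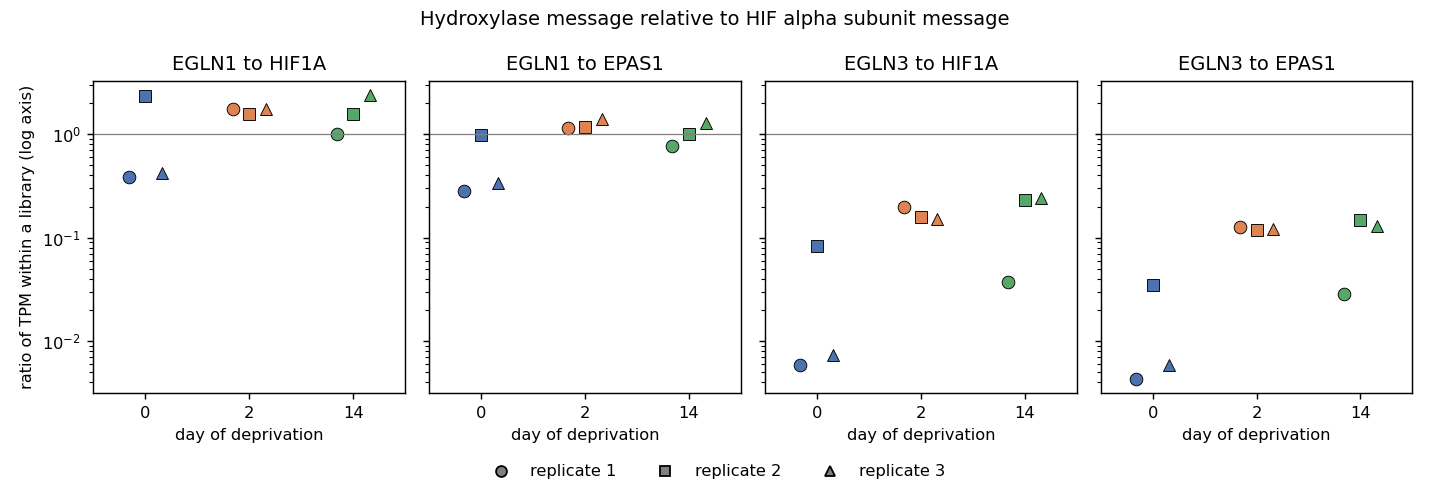
Ratio of TPM within a library (y axis, log scale) of EGLN1 and EGLN3 to HIF1A and EPAS1 at day 0, 2 and 14 (x axis), with 1 marker per library shaped by replicate number. Day 0 replicates 1 and 3 lie lowest in every panel, day 0 replicate 2 lies apart from them, and day 14 replicate 1 lies lowest of the later libraries.

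HIF1AN (factor inhibiting HIF) was at 18.8, 5.78 and 19.2 TPM at day 0, 15.3, 18.7 and 15.4 TPM at day 2, and 24.5, 21.6 and 21.6 TPM at day 14. All day 14 libraries lay above the earlier ones. It was not called at day 2 (log2 change 0.32 ± 0.39, adjusted p = 0.556) or day 14 (0.75 ± 0.39, adjusted p = 0.16) against day 0, and without day 0 replicate 2 the changes were -0.20 ± 0.12 and 0.23 ± 0.12. VHL was at 23.3, 20.8 and 24.0 TPM at day 0, 40.3, 45.5 and 37.1 TPM at day 2, and 39.2, 40.1 and 38.3 TPM at day 14, with no overlap between day 0 and the later days. It rose by 0.82 ± 0.15 at day 2 (adjusted p = 0.00511) and by 0.77 ± 0.15 at day 14 (adjusted p = 0.0067), which is 0.59 and 0.33 above the median of all tested genes. Under median-ratio scaling both calls were lost, at 0.49 (adjusted p = 0.0857) and 0.18 (adjusted p = 0.505), and they held in the other 20 alternatives.

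ANKRD37, whose product is a nuclear ankyrin repeat protein induced by HIF1A, had the largest change of the tested members on the log2(TPM + 1) scale at both later days, although EGLN3 passed it with a pseudocount of 0.1. It was at 3.30, 6.79 and 2.95 TPM at day 0, 27.6, 34.3 and 34.2 TPM at day 2, and 27.9, 32.7 and 33.2 TPM at day 14. Here day 0 replicate 2 was the highest of its day and still far below the later libraries. ANKRD37 rose by 2.69 ± 0.27 at day 2 (adjusted p = 0.000364) and by 2.66 ± 0.27 at day 14 (adjusted p = 0.000437), 7.37 and 7.20 times the day 0 mean, and by 3.0 ± 0.14 and 2.97 ± 0.14 without that library. Its neighbour UFSP2 was at 4.81, 6.64 and 4.89 TPM at day 0, 8.86, 10.03 and 10.8 TPM at day 2, and 10.2, 11.2 and 8.93 TPM at day 14, and rose by 0.76 at day 2 (adjusted p = 0.0164) and by 0.79 at day 14 (adjusted p = 0.0131). The day 2 call of UFSP2 was lost without day 2 replicate 2 or 3 and the day 14 call without day 14 replicate 2.

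**Figure D4:**
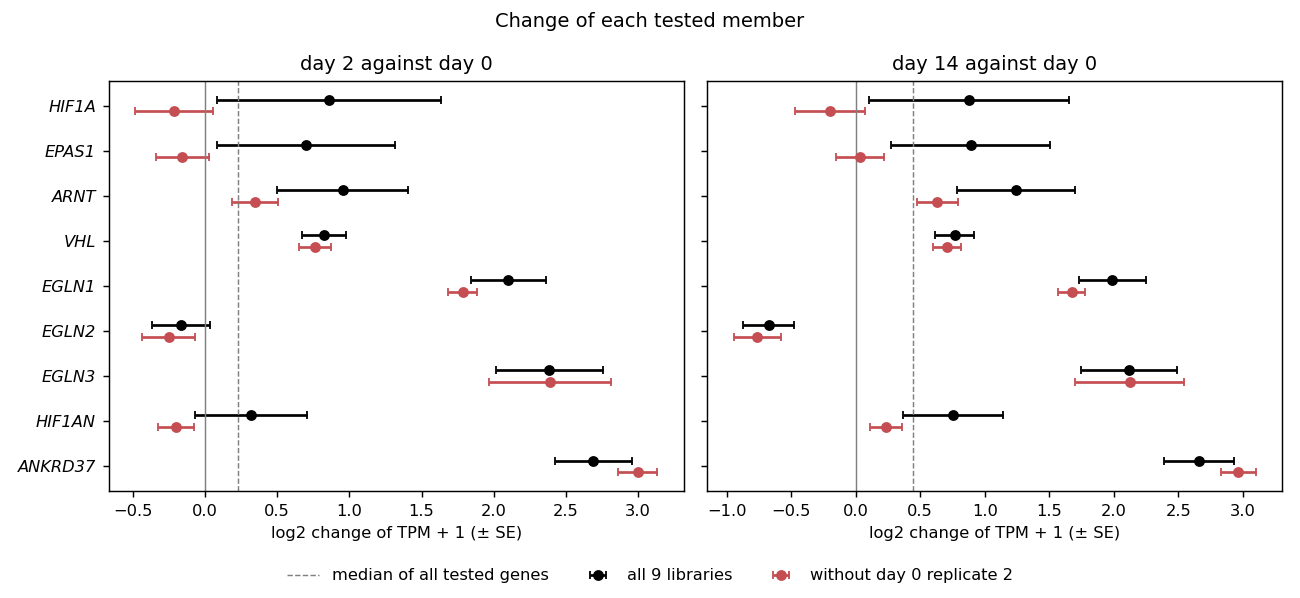
Change of each of the 9 tested members (rows) on the log2(TPM + 1) scale with its standard error (x axis), at day 2 (left) and day 14 (right) against day 0, in all 9 libraries (black) and without day 0 replicate 2 (red), with the median of all tested genes as a dashed line. EGLN1, EGLN3 and ANKRD37 lie near or above 2 in black, while HIF1A lies on opposite sides of 0 in the 2 fits.

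Between day 14 and day 2 none of the 9 tested members was called (0 higher and 0 lower by limma, with 0 higher and 1 lower, EGLN2, at an unadjusted p under 0.05), against 0.212% of all tested genes higher and 0.205% lower. The log2 changes lay between -0.51 ± 0.20 for EGLN2 (adjusted p = 0.231) and 0.44 ± 0.39 for HIF1AN (adjusted p = 0.603). Those of EGLN1, EGLN3, VHL and ANKRD37 were -0.11 ± 0.26, -0.27 ± 0.37, -0.06 ± 0.15 and -0.03 ± 0.27. Without day 0 replicate 2, whose spread enters the shared error of the fit, HIF1AN was called higher at day 14 (0.44 ± 0.11, adjusted p = 0.0273). In that fit 23.5% of all tested genes were higher and 3.86% lower, so 1 of 9 members is below the share over all genes. A change that misses the threshold does not show that the days were alike.

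Day 14 replicate 1 differed from the other day 14 libraries in the pattern across members. It had the lowest EGLN3, EGLN1 and ANKRD37 values of its day, and the highest HIF1A, EPAS1, HIF3A, ARNT and HIF1AN values. Of 27 tested HIF targets on the list described next, 24 were lowest in replicate 1, 1 in replicate 2 and 2 in replicate 3. The same share over all tested genes was not computed, so the count cannot be read as particular to HIF targets. CA9, the membrane carbonic anhydrase, was at 0.107, 1.47 and 2.39 TPM and NDRG1, a hypoxia-induced gene, at 46.9, 243 and 109 TPM in day 14 replicates 1, 2 and 3. This count and these genes were chosen after the values had been seen, and the cause was not tested.

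By mean level the order of the members changed between days. At day 0 it ran EGLN2 (49.6 TPM), EPAS1 (37.0), HIF1A (27.2), VHL (22.7), HIF1AN (14.6), EGLN1 (13.1), ARNT (6.75), ANKRD37 (4.35), EGLN3 (0.262) and HIF3A (0.183). Neighbours in that order overlapped between libraries except VHL with HIF1AN and ANKRD37 with EGLN3. At day 2 EGLN1 led with 56.7 TPM and did not overlap the next, EPAS1, and at day 14 EPAS1 (53.1 TPM) and EGLN1 (52.5 TPM) led and overlapped each other. EGLN3 (5.60 TPM at day 2 and 5.09 at day 14) and HIF3A (0.342 and 0.403) were the lowest on both later days and overlapped no neighbour. At day 0 EGLN1 had stood sixth.

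Other genes of the pathway were read from lists chosen with earlier results of these data known, so their counts describe and do not support, and are to be read against the shares over all genes given above. Of 28 HIF targets 27 were tested, and at day 2 25 were called higher and 1, the transferrin receptor TFRC (log2 change -2.09, adjusted p = 0.00337), lower, with a median of 2.27. At day 14 20 were higher and none lower, with 1 lower at an unadjusted p under 0.05 and a median of 1.40. CA9 (0.0598, 0.0619 and 0 TPM at day 0) and RORA (0.135, 0.0155 and 0.0691 TPM) passed the filter only through later libraries. Their place in these counts and medians thus already required a difference from day 0. RORA was called higher at both days and CA9 at day 2 alone. At day 2 the largest rises were those of NDRG1 (5.87), DDIT4 (5.83), the glycolysis regulator PFKFB4 (4.58) and VEGFA (4.47). At day 14 they were those of DDIT4 (5.14), NDRG1 (4.51), VEGFA (3.98) and the mitophagy receptor BNIP3L (3.19). EPO, the classical HIF2A target in kidney, reached 1 TPM in no library (at most 0.188 TPM, and 0 in every day 2 library) and was not tested. Without day 0 replicate 2 the target counts were 25 higher and 1 lower at day 2 and 20 and 1 at day 14, and 14 of the targets were lower and 1 higher at day 14 than at day 2, against 3.86% of all tested genes lower and 23.5% higher in that fit. The fit of all 9 libraries called 0 targets there (12 lower and 1 higher at an unadjusted p under 0.05).

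Other enzymes that spend oxygen on a substrate (dioxygenases) gave 9 higher and 0 lower of 22 tested at day 2 (12 higher and 2 lower at an unadjusted p under 0.05) and 11 higher and 2 lower at day 14. KDM3A, a histone H3 lysine demethylase, was at 8.81 TPM at day 0, 111 at day 2 and 82.2 at day 14 on average, and rose by 3.64 ± 0.41 at day 2 (adjusted p = 0.000594) and 3.14 ± 0.41 at day 14 (adjusted p = 0.00125). The collagen prolyl hydroxylase P4HA1 rose by 3.36 and 2.82, the lysyl hydroxylase PLOD2 by 2.95 and 1.89 and the histone demethylase KDM4B by 2.82 and 1.80. P4HTM, an endoplasmic reticulum prolyl hydroxylase reported to act on HIF, averaged 11.7, 13.6 and 16.5 TPM at day 0, 2 and 14 and was not called (adjusted p = 0.492 and 0.108). ADO, a thiol dioxygenase that senses oxygen through N-terminal cysteines, averaged 18.7, 16.6 and 18.8 TPM and was not called (adjusted p = 0.522 and 0.968). Without day 0 replicate 2 the counts were 13 higher and 4 lower at day 2 and 12 and 2 at day 14, and without day 2 replicate 2 there was 1 lower at day 2. The day 14 rises numbered 7 without day 14 replicate 1, 6 without replicate 2 and 6 without replicate 3, and the falls numbered 1 or 0 without any library other than day 0 replicate 2 or day 14 replicate 3.

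The partners of VHL in its ligase gave 1 lower and 0 higher of 5 tested at both days, and 0 were higher at an unadjusted p under 0.05. The call was NEDD8, the ubiquitin-like activator of cullins, which averaged 211, 54.0 and 91.2 TPM at day 0, 2 and 14 and fell by 1.86 ± 0.30 at day 2 (adjusted p = 0.00266) and by 1.12 ± 0.30 at day 14 (adjusted p = 0.0201). The scaffold CUL2 averaged 9.54, 6.86 and 9.43 TPM and the ring protein RBX1 85.0, 58.6 and 56.7 TPM, and neither was called. ELOB averaged 1546, 602 and 840 TPM and ELOC 64.0, 41.3 and 59.7 TPM, also without a call. Against day 0 VHL was called higher, a call lost under median-ratio scaling, while none of these partners was called higher. Between day 14 and day 2 the fit of all 9 libraries called 0 of the 5 partners (1 higher at an unadjusted p under 0.05). Leaving out day 0 replicate 2 gave 4 higher at day 14, against 23.5% of all tested genes in that fit. Leaving out any other library gave 0. The count of lower partners at day 2 was 3 without day 0 replicate 2, and the day 14 call was lost without day 14 replicate 2 or 3.

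Among the other bHLH-PAS factors, the protein family of the HIF subunits, 4 of 9 tested were higher and 1 lower at each later day. AHR, the dioxin receptor, which also pairs with ARNT, was at 17.4, 7.24 and 17.7 TPM at day 0, 59.4, 48.3 and 66.5 TPM at day 2, and 66.0, 108 and 77.9 TPM at day 14. It rose by 2.05 ± 0.34 (adjusted p = 0.00317) and 2.55 ± 0.34 (adjusted p = 0.00137). The clock factor ARNTL rose by 1.63 and 1.84, SIM2 by 1.64 and 1.73 and NPAS1 by 0.90 and 0.85, while ARNTL2 was lower by -0.95 and -0.78. The rises numbered 3 at day 2 without any 1 day 2 library or without day 14 replicate 3. At day 14 they numbered 3 without any 1 day 14 library and 5 without day 0 replicate 3. The fall of ARNTL2 was lost without any 1 day 2 library at day 2, and at day 14 without day 0 replicate 1 or 3, any 1 day 2 library, or day 14 replicate 2 or 3, and 2 of the list were lower at both days without day 0 replicate 2. ARNT2, the paralogue of ARNT, averaged 1.009, 1.91 and 2.28 TPM and was not called (adjusted p = 0.143 and 0.0739).

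Co-regulators of HIF gave 2 higher and 1 lower of 11 at day 2, where 19.2% of all tested genes were higher and 11.5% lower. They gave 4 higher and 2 lower at day 14, where those shares were 27.5% and 6.72%, so the counts of rises are close to the background. CITED2, which is HIF-induced and competes with the alpha subunits for EP300 and CREBBP, was at 29.9, 20.0 and 37.6 TPM at day 0, 389, 351 and 349 TPM at day 2, and 273, 569 and 470 TPM at day 14, with no overlap with day 0. It rose by 3.64 ± 0.31 at day 2 (adjusted p = 0.000206) and by 3.84 ± 0.31 at day 14 (adjusted p = 0.000208), more than any of the 9 tested members on the log2(TPM + 1) scale. By ratio of mean TPM EGLN3 stood higher, at 21.4 and 19.5 times the day 0 mean, against 12.5 and 15.0 times for CITED2. RUVBL2 fell by 1.83 and 1.51, the glycolytic enzyme PKM rose by 1.10 at day 2, and CREBBP and CITED4 rose by 1.88 and 1.83 at day 14. EP300 was not called at either day (2.11, adjusted p = 0.0679, and 2.04, adjusted p = 0.0707). The rises ranged from 1 to 5 at day 2 and from 2 to 6 at day 14 when each library was left out in turn, the lowest without any 1 day 2 library and, at day 14, without any 1 day 2 or day 14 library, and the highest without day 0 replicate 2 or, at day 14, also without day 0 replicate 1. There was 1 fall at day 14 without day 0 replicate 1 or 2, day 2 replicate 2, or day 14 replicate 2 or 3.

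Factors that bear on HIF stability gave 4 higher and 3 lower of 14 at day 2 and 5 higher and 2 lower at day 14. The counts of rises lie near the shares over all genes, 19.2% at day 2 and 27.5% at day 14, and 11.5% and 6.72% of all genes were lower. The ubiquitin ligase gene SIAH1, whose product targets EGLN proteins, averaged 11.2, 27.7 and 29.6 TPM at day 0, 2 and 14 and rose by 1.24 ± 0.16 (adjusted p = 0.00117) and 1.33 ± 0.16 (adjusted p = 0.000989). SIAH2 was called at day 14 alone (1.08, adjusted p = 0.0165; at day 2 0.77, adjusted p = 0.0607), and day 14 against day 2 gave 0.31 (adjusted p = 0.598). The kinase gene GSK3B rose by 1.75 and 1.72 and WSB1, a ubiquitin ligase subunit that targets VHL, by 1.57 and 1.5. The chaperones HSP90AA1 and HSP90AB1, which hold HIF1A protein in an oxygen-independent manner, fell by 1.55 and 1.48 at day 2 and by 0.82 and 1.0 at day 14, and have near-identical copies, so their values are uncertain. The day 2 rises numbered 2 without any 1 day 2 library, and the day 2 falls 2 without day 2 replicate 1 or 3.

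The genes with the most similar profiles were found by the root mean square distance between centred log2(TPM + 1) values over the 9 libraries, among 9017 genes. Nearest to EGLN1 were ZNF160 (0.10), UBE2H (0.13), ZMYM2 (0.13), GTF2IRD2B (0.14, with a near-identical copy) and EPB41L5 (0.15), which averaged 3.97 to 16.7 TPM at day 0 and 21.8 to 71.5 TPM at day 2. Nearest to EGLN3 were PIP5KL1 (0.24), RAB11B-AS1 (0.26), GADD45B (0.28), ANGPTL4 (0.28) and PHGDH (0.31). ANGPTL4, a lipase inhibitor, averaged 70.9, 384 and 268 TPM at day 0, 2 and 14. Nearest to HIF1A were ESRG (0.20), COPA (0.21), LNPEP (0.22), SNRNP200 (0.22) and MFHAS1 (0.23), and to EPAS1 RNF169 (0.14), COPA (0.15), GNA11 (0.15), AGO2 (0.15) and UBAP2 (0.16). All genes near HIF1A and EPAS1 shared the low value in day 0 replicate 2, such as COPA, a coat protein of transport vesicles, at 5.21 TPM in it and 44.4 TPM in the mean of replicates 1 and 3.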

How the data were processed

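RNA sequencing was deposited for 9 PANC-1 libraries as 1 table of TPM per gene symbol. The authors made the deposited TPM with Salmon against hg19, as the submitters' processing notes list. No source used here gives the Salmon version, annotation, strand setting or read filters. Columns were matched to samples by the day and replicate number in their names. Each column summed to 1000000 TPM, depth was unknown and no library was a duplicate of another.

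Values were analysed as log2(TPM + 1). The 14144 genes that reached 1 TPM in 3 or more of the 9 libraries entered 1 limma 3.58.1 fit (R 4.3.3) of all 9 libraries with an intensity trend and no block, two-sided, with Benjamini-Hochberg adjustment over those genes at 0.05. The fit was tested on simulated data. Alternatives were pseudocounts of 0.1 and 5, other filters, scalings, moderation and weights, a replicate block, fits of 2 days, and leaving out each library. The 10 members and all lists were chosen with earlier results of these data known. All members are named, with up to 4 called genes per list with the largest change (others named as pathway partners) and the 5 nearest profiles of 4 members. Those profiles left out symbols of small RNAs, microRNAs, clones, LOC and LINC loci, numbered open reading frames, and the KIAA, FLJ, FAM and TMEM series. Not all members of each list are printed. Promoter sequences are RefSeq's (GRCh38.p14). Figures were drawn with matplotlib 3.10.9 (Python 3.11.15).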

Additional observations from a re-analysis of the deposited data

How the results depend on the processing

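Single changes of EGLN1 and ANKRD37 were called in all 21 alternatives against day 0, and those of EGLN3 in all 20 in which it was tested (it was not tested with a mean of at least 5 TPM), with log2 ranges of 1.78 to 2.29, 2.00 to 2.996 and 1.0 to 3.97 at day 2 and 1.42 to 2.18, 1.98 to 3.03 and 0.89 to 3.61 at day 14. For EGLN3, which passed the main filter only through day 2 and day 14 libraries, these calls describe and do not support. With array weights 1 member (EGLN2) was lower at day 2 against day 0, and 1 was higher (HIF1AN) and 1 lower (EGLN2) at day 14 against day 2. With quantile normalization 1 (EGLN2) was lower at day 14 against day 2. Without each library in turn, 4 to 5 members were higher (5, with ARNT, without any 1 day 0 library) and 0 to 1 lower at day 14 against day 0, and 0 to 1 higher at day 14 against day 2. With only the 2 days compared the day 14 count of lower members was 0.

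Same-numbered libraries did not deviate together from their day means (r from -0.08 to 0.02 over 9 pairs, none over 0.1), so the replicate numbers were not taken as pairs. With a replicate block the count of lower members at day 14 against day 0 was 0, and no other call of a tested member changed.

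Signs that turned belonged to uncalled changes. HIF1A turned with array weights at day 2 (-0.20) and day 14 (-0.33) against day 0, and at day 14 against day 2 with array weights (-0.13), median-ratio scaling (-0.23) and quantile normalization (-0.26). EPAS1 turned with array weights at day 2 (-0.11) and, at day 14 against day 2, with median-ratio scaling (-0.058) and quantile normalization (-0.052). HIF1AN turned with array weights at day 2 (-0.25). At day 14 against day 2 EGLN3 turned with array weights (0.017) and ANKRD37 with array weights (0.054) and without ribosomal protein genes (0.0058). The cause was not tested. Leaving out each library in turn gave log2 changes of -0.22 to 1.45 for HIF1A, -0.16 to 1.22 for EPAS1, -0.20 to 0.59 for HIF1AN (day 2 against day 0); -0.20 to 1.47 for HIF1A (day 14 against day 0); -0.24 to 0.28 for HIF1A, -0.12 to 0.019 for VHL, -0.62 to 0.22 for EGLN3, -0.13 to 0.048 for ANKRD37, -0.43 to 0.17 for the ratio of EGLN1 to HIF1A, -0.68 to 0.45 for the ratio of EGLN3 to HIF1A, -0.81 to 0.16 for the ratio of EGLN3 to EPAS1 (day 14 against day 2).

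The log2 ratio of EGLN3 to HIF1A at day 2 minus day 0 was 3.02 with a pseudocount of 0.1. That of EGLN3 to EPAS1 was 3.23 with 0.1 and 0.44 with 5 at day 2 minus day 0, and 2.68 with 0.1 at day 14 minus day 0, since a larger pseudocount shrinks a low gene.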
